A study of Caenorhabditis elegans with 2 samples.

Results

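Intronic autosomal SKN-1 regions are places inside introns where an eGFP-tagged SKN-1 protein was listed by chromatin immunoprecipitation and sequencing (ChIP-seq). They are the rows of the authors' pooled list, which holds peaks together with background, that lay on the 5 autosomes, had their summit inside the body of a protein-coding gene but in no annotated exon, and missed the promoter windows, which run for 1000 bp before and 500 bp after each protein-coding gene start. Of 29768 pooled regions, 24221 were autosomal and 5735 met the rule. These intronic regions made up 19.3% of the pooled list and 23.7% of its autosomal rows (exact 95% interval 23.1 to 24.2%). The other 18486 autosomal regions comprised 7466 in promoter windows, 7062 in exons outside those windows and 3958 between genes.

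The study used whole Caenorhabditis elegans of strain OP342 at the L4 larval stage, with males and females pooled. The labels give the genotype as unc-119(ed3) III; wgIs342, an insertion that targets skn-1, so that every worm assayed carried the unc-119 allele and the insertion, which by the usual naming is an integrated transgene. There were 2 biological replicates in 1 group, so that no condition could be compared, and an untagged strain and the control alignment were not analysed here. The replicates' lists held 30000 regions each, the pooled list was made from both replicates, and 97 pooled regions passed the authors' threshold on reproducibility. Just 97 pooled regions had a signal at or above the weakest of these, so the thresholded list holds the top of the pooled ranking. A comparison of thresholded shares is thus also one of pooled rank. No read counts were in the lists, so the depth of each sample is unknown, and the strength of a region is the authors' signal value, whose scale is not stated and which was used to rank regions within a list.

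SKN-1 belongs with the Nrf family of mammals and is known for inducing detoxification genes in the intestine under stress and for specifying endoderm in the embryo, and it binds short sites with a basic region that lacks the leucine zipper of its relatives. Most introns of this worm are short, and long introns, often the first of a gene, are known to hold enhancers and internal promoters.

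The strongest intronic regions and those with a SKN-1 site are shown first, because their letters and their position in the intron carry most of what follows. Each sequence is 201 bp centred on the summit, read 5′ to 3′ from the plus strand of the RefSeq WBcel235 assembly (ce11). Capitals mark the SKN-1 site and 4 other runs of letters, searched on both strands. The SKN-1 site was searched as its 8 forms AATATCAT, AATGTCAT, ATTATCAT, ATTGTCAT, TATATCAT, TATGTCAT, TTTATCAT and TTTGTCAT. The other runs in capitals are TGATAA, the letters of GATA factors, which can overlap the site; GAGAGAGA; GTAAACA, the letters of FOXO factors; and CTGCGTCTC with its reverse complement GAGACGCAG, a run that was picked after these sequences had been seen. TGACTCA, the letters of AP-1-like bZIP dimers, was also searched.

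The first 8 sequences are members of the thresholded list, by falling signal, and show where CTGCGTCTC and the single SKN-1 site among them lie.
epg-9, chrIV:2602105-2602305: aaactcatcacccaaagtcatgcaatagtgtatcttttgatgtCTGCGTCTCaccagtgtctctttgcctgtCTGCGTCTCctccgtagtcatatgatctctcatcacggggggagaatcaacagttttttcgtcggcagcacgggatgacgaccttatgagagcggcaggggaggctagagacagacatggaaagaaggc
Y111B2A.12, chrIII:12612554-12612754: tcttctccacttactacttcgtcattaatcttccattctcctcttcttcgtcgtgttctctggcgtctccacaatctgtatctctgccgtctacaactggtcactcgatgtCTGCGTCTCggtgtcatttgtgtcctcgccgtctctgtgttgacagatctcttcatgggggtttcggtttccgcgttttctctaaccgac
mdt-26, chrII:5661782-5661982: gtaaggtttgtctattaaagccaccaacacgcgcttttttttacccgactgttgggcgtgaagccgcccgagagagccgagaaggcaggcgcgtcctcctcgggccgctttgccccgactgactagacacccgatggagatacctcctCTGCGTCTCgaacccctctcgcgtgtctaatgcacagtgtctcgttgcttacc
W06H8.6, chrV:6224555-6224755: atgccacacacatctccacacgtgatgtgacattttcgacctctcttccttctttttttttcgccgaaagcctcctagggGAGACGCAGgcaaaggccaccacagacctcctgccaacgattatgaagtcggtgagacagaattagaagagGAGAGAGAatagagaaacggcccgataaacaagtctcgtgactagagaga
gei-4, chrIII:349839-350039: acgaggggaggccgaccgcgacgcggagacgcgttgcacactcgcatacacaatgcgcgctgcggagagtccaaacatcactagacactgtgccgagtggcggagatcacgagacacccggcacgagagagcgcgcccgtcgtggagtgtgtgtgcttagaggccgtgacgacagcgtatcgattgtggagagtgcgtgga
scc-2, chrII:255244-255444: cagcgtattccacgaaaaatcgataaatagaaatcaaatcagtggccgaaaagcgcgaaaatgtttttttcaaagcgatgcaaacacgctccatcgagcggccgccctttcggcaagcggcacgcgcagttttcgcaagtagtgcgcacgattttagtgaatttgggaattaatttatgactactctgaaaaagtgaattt
ccch-1, chrV:11539752-11539952: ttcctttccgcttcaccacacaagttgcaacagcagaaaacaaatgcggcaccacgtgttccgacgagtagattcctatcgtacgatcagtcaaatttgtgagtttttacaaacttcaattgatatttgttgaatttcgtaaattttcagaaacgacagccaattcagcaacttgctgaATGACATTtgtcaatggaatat
zfp-1, chrIII:8795749-8795949: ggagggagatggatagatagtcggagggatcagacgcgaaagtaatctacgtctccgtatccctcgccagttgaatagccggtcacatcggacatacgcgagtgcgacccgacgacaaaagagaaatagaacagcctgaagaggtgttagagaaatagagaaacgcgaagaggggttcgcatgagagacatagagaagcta

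The next 4 are, with ccch-1, the 5 strongest regions that hold the SKN-1 site, and the last is the strongest region of skn-1 itself, which holds none of its forms.
pac-1, chrIII:8512060-8512260: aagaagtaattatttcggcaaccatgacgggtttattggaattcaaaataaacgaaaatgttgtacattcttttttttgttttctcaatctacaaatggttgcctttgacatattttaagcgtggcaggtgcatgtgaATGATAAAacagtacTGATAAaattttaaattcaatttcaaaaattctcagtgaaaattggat
jac-1, chrIV:16024222-16024422: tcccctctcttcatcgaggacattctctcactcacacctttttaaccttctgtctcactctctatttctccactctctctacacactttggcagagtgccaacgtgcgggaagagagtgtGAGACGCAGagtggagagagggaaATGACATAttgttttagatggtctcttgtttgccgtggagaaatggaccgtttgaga
klp-12, chrIV:11349156-11349356: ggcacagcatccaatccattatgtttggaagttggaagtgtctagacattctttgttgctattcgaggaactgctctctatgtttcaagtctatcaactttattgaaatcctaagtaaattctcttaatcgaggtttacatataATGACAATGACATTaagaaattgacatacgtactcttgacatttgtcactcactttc
lgc-48, chrV:13342407-13342607: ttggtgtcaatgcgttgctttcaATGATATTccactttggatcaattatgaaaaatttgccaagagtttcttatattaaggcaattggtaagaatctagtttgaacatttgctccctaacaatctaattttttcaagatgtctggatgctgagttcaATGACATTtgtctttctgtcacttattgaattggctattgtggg
skn-1, chrIV:5656987-5657187: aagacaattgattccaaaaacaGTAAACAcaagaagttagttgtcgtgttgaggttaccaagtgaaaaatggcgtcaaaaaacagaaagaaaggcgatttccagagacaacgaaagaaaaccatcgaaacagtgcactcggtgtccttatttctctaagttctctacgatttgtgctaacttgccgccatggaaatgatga

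CTGCGTCTC or its complement stood in the 4 strongest sequences, in a pair of copies at epg-9, and again at jac-1. The gei-4, scc-2 and zfp-1 sequences held none of the runs searched. The sites at klp-12 overlapped each other, and lgc-48 had them on both sides of its summit.

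Intronic regions entered the thresholded list 9 times, which was 0.157% of them (exact interval 0.0718 to 0.298%) and 12.7% of its 71 autosomal peaks. Over the whole pooled list the share was 0.326%. The other autosomal regions entered it 62 times, or 0.335% (odds ratio 0.467, two-sided Fisher's exact test with Benjamini-Hochberg (BH) adjustment, p = 0.0347, adjusted p = 0.0754 over the 10 measures compared with these regions). Within those other regions the promoter windows held 42 thresholded peaks, or 0.563%, and exons outside the windows held 7, or 0.0991%. With the list of 1 replicate in place of the pooled one, a region counted when it overlapped a thresholded peak, which is a looser measure. The difference then passed, with an odds ratio of 0.383 for replicate 2 alone (adjusted exact p = 0.00830) and of 0.358 for replicate 1 alone (adjusted exact p = 0.0160). It also passed with a promoter window of 500 bp before to 250 bp after the start (0.440, adjusted exact p = 0.0368), and not with one of 2000 to 1000 bp (0.567, adjusted exact p = 0.235). When each host gene gave only its strongest region, with the other regions left whole, it was 0.835 (adjusted exact p = 0.738), a setting that keeps strong regions on the intronic side alone. All p-values here describe regions, not worms, and treat neighbouring regions as independent, and intervals cover counting error only.

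The strongest intronic region had a pooled signal of 52.3 and lay in epg-9, which encodes an autophagy protein related to mammalian ATG101. It stood at IV:2602010-2602399, wholly inside the second of 5 introns, which is 1824 bp long, and its summit was 1064 bp downstream of the gene start. Its signal was 33.4 in the list of replicate 1, at rank 9, and 24.3 in the list of replicate 2, at rank 8. Both replicates thus placed it among their 10 strongest regions. A pair of weaker regions in epg-9 had pooled signals of 24.9 and 10.9.
Y111B2A.12 carried the next region at III:12612459-12612848, with a pooled signal of 44.5, in an intron of 7076 bp. Its signals were 25.3 in replicate 1, at rank 24, and 13.7 in replicate 2, at rank 294. mdt-26, which encodes a subunit of the Mediator complex, followed with 38.9 at II:5661687-5662076, over a first intron of 386 bp that is shorter than the listed region. It had 16.3 in replicate 1 and 18.8 in replicate 2, where it ranked 42. W06H8.6 had a pooled signal of 38.03 at V:6224460-6224849, with 16.8 in replicate 1 and 24.01 in replicate 2, where it ranked 9.

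The other 5 thresholded intronic regions had pooled signals of 29.8 to 36.03. The gei-4 region, in a first intron of 6235 bp on chromosome III, had 36.03, with 18.75 in replicate 1 and 17.4 in replicate 2. The region of pbrm-1, which encodes the polybromo subunit of a SWI/SNF chromatin remodelling complex, had 35.7, with 14.1 and 17.3 in replicates 1 and 2. It lay in an intron of 1260 bp on chromosome I, wholly inside it. scc-2, the cohesin loader, had 32.1 in a first intron of 8369 bp, with 16.8 in replicate 1 and 11.98 in replicate 2. That summit lay 148 bp upstream of an internal transcript start, and the region is intronic through a longer transcript of the gene.
The ccch-1 region, in a CCCH zinc finger gene, had 30.01, but only 9.93 in replicate 1 and 10.7 in replicate 2, at ranks 1037 and 1357. Its summit fell in an intron of 52 bp, so that the listed 390 bp reached beyond it on both sides. zfp-1, which encodes a PHD finger protein related to mammalian AF10, had 29.8, with 14.7 in replicate 1 and no overlapping region in the list of replicate 2. These 2 had the least support from the replicates among the 9. The first region outside the threshold was that of gsa-1, the stimulatory G protein alpha subunit, with a pooled signal of 28.7. Its summit lay 406 bp upstream of an internal transcript start.

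**Figure D1:**
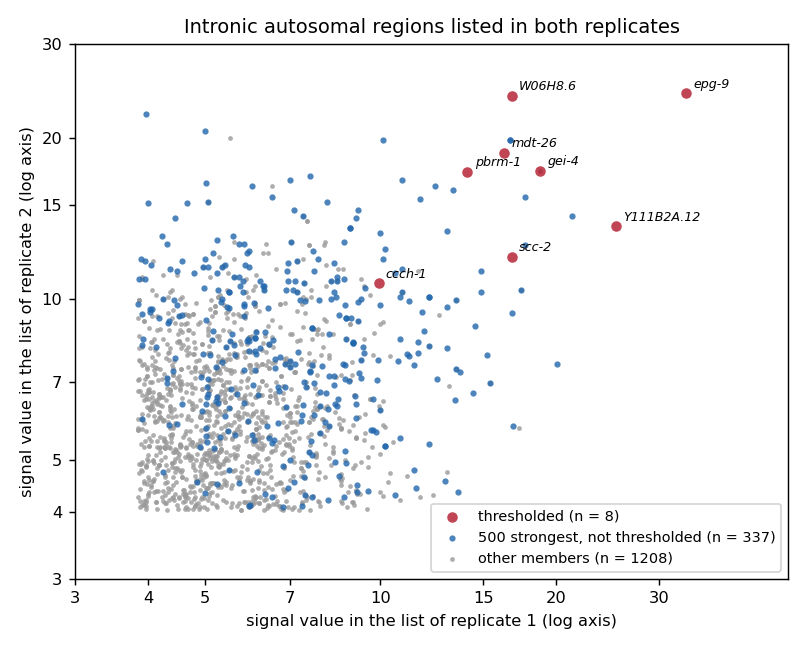
Signal values of the 1553 intronic regions listed in both replicates, replicate 1 on the x axis and replicate 2 on the y axis, both on log axes, with thresholded regions in red, the rest of the 500 strongest in blue and the other intronic regions in grey. epg-9 stands alone at the upper right with 33.4 and 24.3, while ccch-1 lies among regions that were not thresholded.

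Ranks 10 to 25 had pooled signals of 25.1 to 28.7, and several of them rested mainly on 1 replicate. The strongest region of saeg-1, a gene of the EGL-4 kinase pathway, had 25.7 pooled, with 3.96 in replicate 1 at rank 28154 and 22.2 in replicate 2 at rank 15. Its neighbour in the same gene had 25.2, with 9.50 in replicate 1 and no overlapping region in replicate 2. pck-2, a phosphoenolpyruvate carboxykinase gene, showed the opposite pattern to the first of these, with 25.2 pooled, 16.9 in replicate 1 at rank 100 and 5.78 in replicate 2 at rank 14752. By contrast, gsa-1 had 13.3 and 16.01 in replicates 1 and 2, at ranks 252 and 107. K12H6.6 had 11.7 and 15.4, and Y54G2A.26 had 17.4 and 10.4, with 28.6 and 28.5 pooled. The remaining hosts in this range were dhc-4, miz-1, F08G5.3, ell-1, eef-2, mpk-1, R02F2.1, mca-1, mnk-1 and B0361.11. mpk-1, the worm's ERK kinase, had 26.3 in a first intron of 8247 bp, with 9.26 in replicate 1 at rank 1467 and a rank of 1927 in replicate 2. mca-1, a plasma membrane calcium pump gene, had 25.3, with 8.41 and 10.1. eef-2, the translation elongation factor, had 26.4 over an intron of 136 bp, with 8.10 and 15.2.

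Across all intronic regions the replicates overlapped loosely. Of the 5735, 3068 overlapped a region listed in replicate 1 by at least 1 bp, 3272 one listed in replicate 2, 1553 (27.1%) both and 948 neither. From the other side, 9.84% of the regions in the list of replicate 1 and 11.4% of those in the list of replicate 2 overlapped an intronic region. The median width of a region was 240 bp in the list of replicate 1 and 396 bp in that of replicate 2. Wider regions overlap others more readily, and the part of width in differences between the replicates was not tested. The other autosomal regions were in both lists in 29.1% of cases. Over the 1553, the correlation between the replicates' signal values was 0.304 by Pearson's r and 0.129 by Spearman's rank correlation, given as a description because the regions share the pooled list. Of the 500 strongest, 345 (69.0%) were in both lists and 1 in neither, and their Spearman correlation was 0.0116. The pooled signal was made from both replicates, so the rise in the share listed in both is partly built in.

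Overlap with the 1000 strongest regions of each replicate was set against the other autosomal regions. With replicate 1 it was 163 intronic regions, or 2.84%, against 666 others, or 3.60%, and 3.55% of the whole pooled list (odds ratio 0.783, Fisher's exact test, BH-adjusted p = 0.0266). With replicate 2 it was 198, or 3.45%, against 733, or 3.97%, and 3.91% of the pooled list (odds ratio 0.866, adjusted exact p = 0.106). With both it was 25, or 0.436%, against 0.606% of the others, and 0.601% of the pooled list (odds ratio 0.718, adjusted exact p = 0.175). The deficit thus passed the threshold of 0.05 for replicate 1, and not for replicate 2 or for both. Of the 1000 strongest regions themselves, 14.7% in replicate 1 and 17.6% in replicate 2 overlapped an intronic region. The replicate 1 difference no longer passed when the 500 strongest (odds ratio 0.805, adjusted exact p = 0.102) or the 2000 strongest regions (0.877, adjusted exact p = 0.0737) were used, when exons of protein-coding genes alone barred a summit (0.858, adjusted exact p = 0.109), or with the promoter window of 2000 to 1000 bp (0.865, adjusted exact p = 0.219).

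Density differed little between the autosomes. The eligible bases, those that met the same conditions as a summit, came to 22.8 Mb, and the density over them was 251 regions per Mb. By chromosome it was 238 per Mb on I (1212 regions), 279 on II (1068), 260 on III (1160), 238 on IV (1119) and 248 on V (1176). The thresholded ones numbered 1, 2, 3, 1 and 2 in the same order. All listed intronic regions were 390 bp wide with the summit in the middle, and 1056 of them overlapped another pooled region.

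Density varied more with intron length than between chromosomes. The median host intron, taken as the shortest annotated intron over the summit, was 972 bp, and 1036 bp over the eligible bases. For comparison, the 90713 autosomal introns of protein-coding genes had a median of 70 bp, and 8.02% of them were over 1000 bp. Density fell and then increased with length. It was 318 regions per Mb in introns of up to 100 bp, 299 at 101 to 390 bp, 235 at 391 to 1000 bp, 189 at 1001 to 2000 bp, 235 at 2001 to 5000 bp and 332 in introns over 5000 bp. In the shortest classes the listed region reaches into the flanking exons: 1350 intronic regions (23.5%) sat in introns under 390 bp, and only 2900 (50.6%) lay wholly inside their intron.

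The 500 strongest were distributed further towards long introns. They reached 39.2 per Mb in introns over 5000 bp and 28.8 per Mb at 2001 to 5000 bp, against 11.6 per Mb at 1001 to 2000 bp. The other intronic regions had 292, 206 and 177 per Mb in the same classes. The rise was not steady with length. In introns of up to 100 bp the 500 strongest had 24.6 per Mb, and 25.4 per Mb at 101 to 390 bp. The other intronic regions had 294 and 273 per Mb there. Introns over 1000 bp held 284 of the 500 strongest (56.8%) and 2531 of the 5235 others (48.3%; odds ratio 1.40, Fisher's exact test, BH-adjusted p = 0.000824 over 8 measures), and 51.5% of the eligible bases lay in such introns. At a limit of 500 bp the difference did not pass (odds ratio 1.18, adjusted exact p = 0.192), and at 2000 bp it was wider (1.79, adjusted exact p = 8.10e-09). With the list of replicate 2 alone in place of the pooled one it did not pass (odds ratio 1.23, adjusted exact p = 0.0533).

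**Figure D2:**
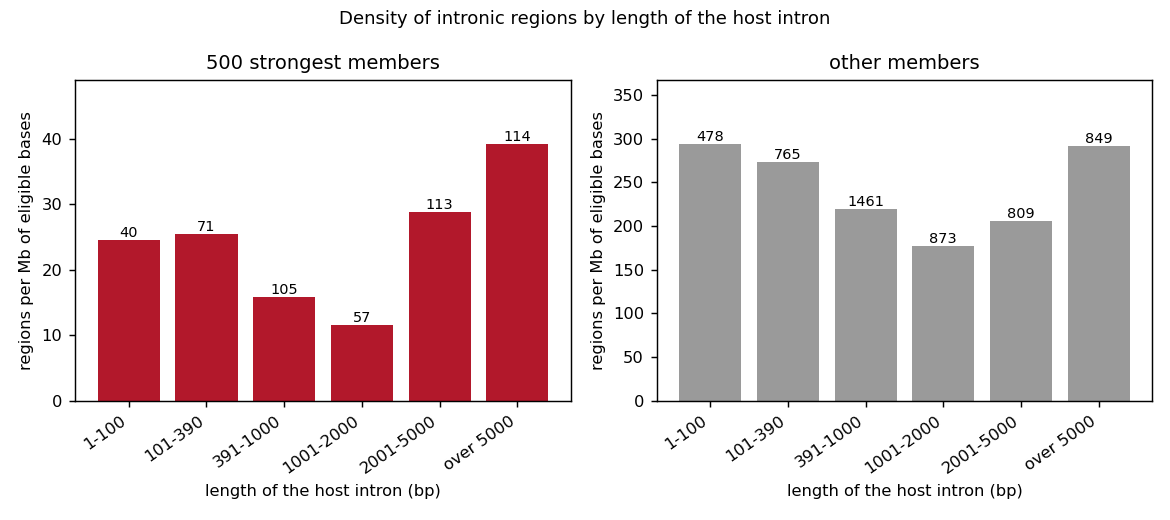
Intronic regions per Mb of eligible bases by length of the host intron in bp, for the 500 strongest (left) and the other intronic regions (right), with the number of regions above each bar. The bars of the 500 strongest are lowest at 1001 to 2000 bp, with 11.6 per Mb, and highest over 5000 bp, with 39.2 per Mb.

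First introns held 191 of the 500 strongest (38.2%) and 1612 of the others (30.8%; odds ratio 1.39, adjusted exact p = 0.00172), against 26.7% of the eligible bases. An intron counted as first when it was the first of any annotated transcript of its gene, also of one that begins at an internal start. The share in first introns was 43% at ranks 1 to 100, 37.0% at 101 to 500, 34% at 501 to 2000 and 29.5% below. This difference also did not pass with replicate 2 alone (odds ratio 1.26, adjusted exact p = 0.0533). Median intron length followed the same order, with 2538, 1136, 1077 and 901 bp in those 4 classes of rank. A summit within the promoter window of an internal transcript start was seen in 19%, 21.5%, 19% and 15.6% of them, against 13.5% of the eligible bases. Base composition moved along with rank: the mean GC content of the 201 bp was 44.1%, 39.4%, 37.7% and 35.6%, and the share of bases that RefSeq marks as repeats in lower case was 21.3%, 29.5%, 34.9% and 40.3%. The eligible bases had 32% GC and 54.9% marked bases. The part of base composition in the differences between strong and weak intronic regions was not tested.

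Genes for tRNAs, snoRNAs and snRNAs make short non-coding RNAs that act in translation, RNA modification and splicing, and a few lie in introns. A tRNA, snoRNA or snRNA gene lay within 200 bp of the summit in 57 intronic regions (0.994%) and in 238 of the other autosomal regions (1.29%; odds ratio 0.770, adjusted exact p = 0.106). The rule bears on these counts, since a summit in an exon of any gene, these RNA genes included, was not intronic. With exons of protein-coding genes alone barred the direction turned, to 90 of 5892 against 205 of 18329 (odds ratio 1.37, adjusted exact p = 0.0475). Among the intronic regions such genes were near 18 of the 500 strongest (3.60%) and 39 of the others (0.745%; odds ratio 4.98, Fisher's exact test, BH-adjusted p = 3.10e-06). With the list of replicate 1 alone, the odds ratio was 2.14 and the difference did not pass (adjusted exact p = 0.0704). The 5 strongest were at dhc-4, F08G5.3, mdt-4, cutl-18 and set-18. dhc-4, a dynein heavy chain gene, had a pooled signal of 27.9 beside an snRNA gene, with 10.9 in replicate 1 and 16.7 in replicate 2. F08G5.3 had 26.7 beside a pair of tRNA genes, with 8.44 and 10.98 in the replicates. mdt-4, another Mediator gene, had 22.7 beside an snoRNA gene, with 5.86 in replicate 1 and 11.6 in replicate 2. cutl-18 had 22.3, also beside an snoRNA gene, with 6.02 and 16.3. set-18 had 21.4 beside a tRNA gene, with 8.12 and 4.22, and was the only one of these 5 that was higher in replicate 1. Signal values of the 2 lists are not on a stated common scale.

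The SKN-1 site was in the 201 bp of 481 intronic regions, or 8.39% (exact interval 7.68 to 9.13%). Flanking windows of equal length, 1000 bp away from each summit on either side, held it in 9.37% of 11470 cases, and the other autosomal regions in 9.29%, or 1718 (odds ratio 0.894, adjusted exact p = 0.0754). Among the intronic regions it did not become more frequent with signal: 35 of the 500 strongest held it (7.0%), against 446 of the others (8.52%; odds ratio 0.808, adjusted exact p = 0.311). By form, AATATCAT and TTTGTCAT were in 90 regions each, ATTATCAT in 78, TTTATCAT in 77, ATTGTCAT in 63, AATGTCAT in 44, TATATCAT in 39 and TATGTCAT in 25. In 155 of the 481 a TGATAA overlapped the site. A match describes the letters in a window and not a bound site.

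The 5 strongest regions with the site were ccch-1, described above, pac-1, jac-1, klp-12 and lgc-48. pac-1, a cell polarity gene, had a pooled signal of 24.2 in an intron of 3651 bp, with 8.88 in replicate 1 and 13.6 in replicate 2. jac-1, the p120 catenin of cell junctions, had 22 in a first intron of 7731 bp, with 11.8 and 9.45. klp-12, a kinesin gene, had 21.5 in an intron of 4239 bp, with 7.87 and 6.30. lgc-48, a ligand-gated ion channel gene, had 21.1, with 7.58 and 7.33, and like ccch-1 its summit lay in a very short intron, of 50 bp, with exon on either side. None of these 4 was in the thresholded list.

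Of the other letters, GAGAGAGA was more frequent in strong than in weak intronic regions. It stood in 38 of the 500 strongest (7.60%) and 125 of the others (2.39%; odds ratio 3.36, Fisher's exact test, BH-adjusted p = 7.54e-08), against 2.39% of the flanking windows. By class of rank it was in 13%, 6.25%, 3.40% and 1.98%. Strong regions elsewhere held it as well: among the 500 strongest regions of the pooled list, 11 of the 74 intronic ones (14.9%) and 33 of the 321 other autosomal ones (10.3%) did. Against the other autosomal regions, where 425 (2.30%) held it, all 163 intronic ones (2.84%) gave an odds ratio of 1.24 (adjusted exact p = 0.0700), and with the list of replicate 2 alone the ratio was 1.45 and passed (adjusted exact p = 0.00202). It was 1.13 with replicate 1 alone (adjusted exact p = 0.306), and turned to 0.878 with the strongest region of each host gene against all the others (65 against 425, adjusted exact p = 0.738). TGATAA was less frequent in intronic regions, with 886 (15.4%), than in the other autosomal regions, with 3171 (17.2%; odds ratio 0.882, adjusted exact p = 0.0256), and the flanking windows held it in 16.9%. That difference did not pass with the list of replicate 1 alone (odds ratio 0.976, adjusted exact p = 0.702), with the strongest region of each host gene against all the others (0.901, adjusted exact p = 0.400) or within 50 bp of the summit (0.872, adjusted exact p = 0.0796). Between strong and weak intronic regions TGATAA did not pass (65 against 821, odds ratio 0.803, adjusted exact p = 0.192). GTAAACA was in 133 intronic regions (2.32%) and 350 others (1.89%; odds ratio 1.23, adjusted exact p = 0.0759), and TGACTCA in 105 (1.83%) and 344 (1.86%; odds ratio 0.984, adjusted exact p = 0.911).

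CTGCGTCTC was also more frequent at higher ranks, which is given without a test because the letters were picked from sequences among the 100 strongest. On either strand it was in 14 of the 100 strongest intronic regions (14%, exact interval 7.87 to 22.4%), in 14 of ranks 101 to 500 (3.50%), in 47 of ranks 501 to 2000 (3.13%) and in 48 of the 3735 below (1.29%). The flanking windows held it in 1.19% and the other autosomal regions in 1.70%. Among the 500 strongest regions of the pooled list, 12 of the 74 intronic ones and 37 of the 321 other autosomal ones held it. Of the 9 thresholded intronic regions 4 did, all of them among the letters printed above.

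**Figure D3:**
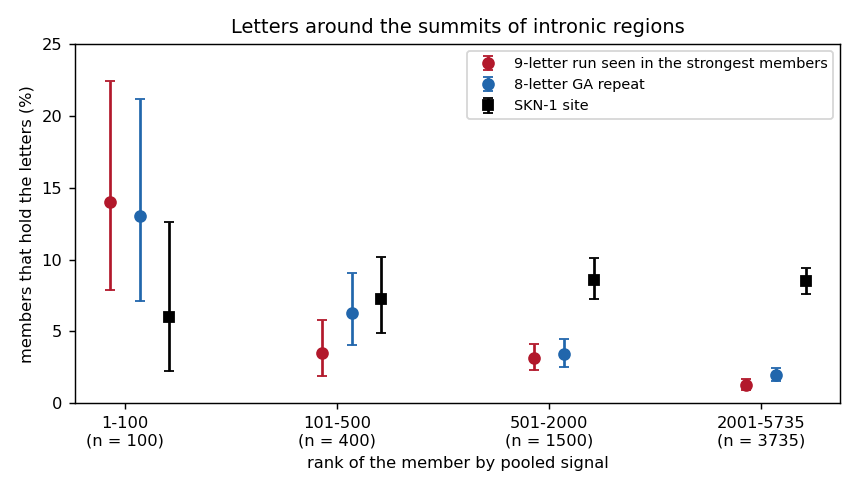
Share of intronic regions, in %, whose 201 bp around the summit hold CTGCGTCTC (the 9-letter run, red), GAGAGAGA (the GA repeat, blue) or the SKN-1 site (black squares), by class of rank; bars are exact 95% intervals. The first pair fall from 14% and 13% at ranks 1 to 100 to 1.29% and 1.98% at the lowest ranks, while the SKN-1 site lies between 6.0% and 8.60%.

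The intronic regions lay in 3289 host genes, 23.9% of the 13777 autosomal protein-coding genes with eligible bases. Most hosts, 2207, had 1 region, 197 had at least 5 and 35 at least 10. Host genes had a median of 2305 eligible bp, and eligible genes without a region 460 bp. The share of genes that were hosts was 5.90% with up to 500 eligible bp, 18% at 501 to 1000, 29.95% at 1001 to 2000, 50.6% at 2001 to 5000, 68.45% at 5001 to 10000 and 93.1% above. Counts of hosts in any gene list are therefore set beside the eligible bases of its genes.

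Some hosts held many regions. mbk-2, a DYRK family kinase, kin-1, the catalytic subunit of protein kinase A, and hmr-1, the classical cadherin, had 16 each, at 741, 493 and 340 per Mb. jun-1, a c-Jun related bZIP factor, had 15 at 979 per Mb. miz-1, kcnl-1, aakg-1 and spsb-1 had 14 each, at 1436, 393, 432 and 487 per Mb. daf-16 and dkf-2 also had 14, but their best regions were weaker than those of the 4 just named, which complete the 8 hosts described here. kcnl-1 encodes a potassium channel and aakg-1 a gamma subunit of AMP-activated kinase. Relative to their eligible bases miz-1 and jun-1 were the densest of these 8. The strongest region of the 8 hosts was that of miz-1, with 27.6 pooled, 10.1 in replicate 1 and 19.8 in replicate 2, in an intron of 8501 bp. miz-1 had 6 of its 14 among the 500 strongest, and ranked 4 by density among the 197 hosts with at least 5. Some of its regions overlap, such as those at 8.97 to 9.37, 9.30 to 9.70 and 9.56 to 9.95 kb from the gene start. Counts and densities per host are thus of listed regions and not of separate places, also at mnk-1. mnk-1, a kinase that acts below MAP kinases, had 9 regions at 1230 per Mb, 4 of them among the 500 strongest. Its best had 25.1 pooled, with 12.1 in replicate 1 and 10.1 in replicate 2, and lay 92 bp upstream of an internal transcript start.

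skn-1 itself hosted 4 regions in 4634 eligible bp. The strongest, at IV:5656892-5657281, ranked 26 among the intronic regions with a pooled signal of 24.9, 9.14 in replicate 1 and 14.7 in replicate 2. The next had 22.6 pooled, with 5.26 and 12.9, and another 11.9, with 7.86 and 4.18. These 3 lay in the first intron of the longest transcript, 4347 bp, 785 to 3297 bp downstream of its start. The fourth had 11.5 pooled, with 5.56 in replicate 1 and no overlapping region in replicate 2, in an intron of clec-178, a gene on the other strand inside skn-1. Only in the strongest was the signal of each replicate among its 2000 strongest. If the insertion carries skn-1 sequence, as its label says it targets that gene, its extra copies and binding at the endogenous intron cannot be told apart from these lists.

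**Figure D4:**
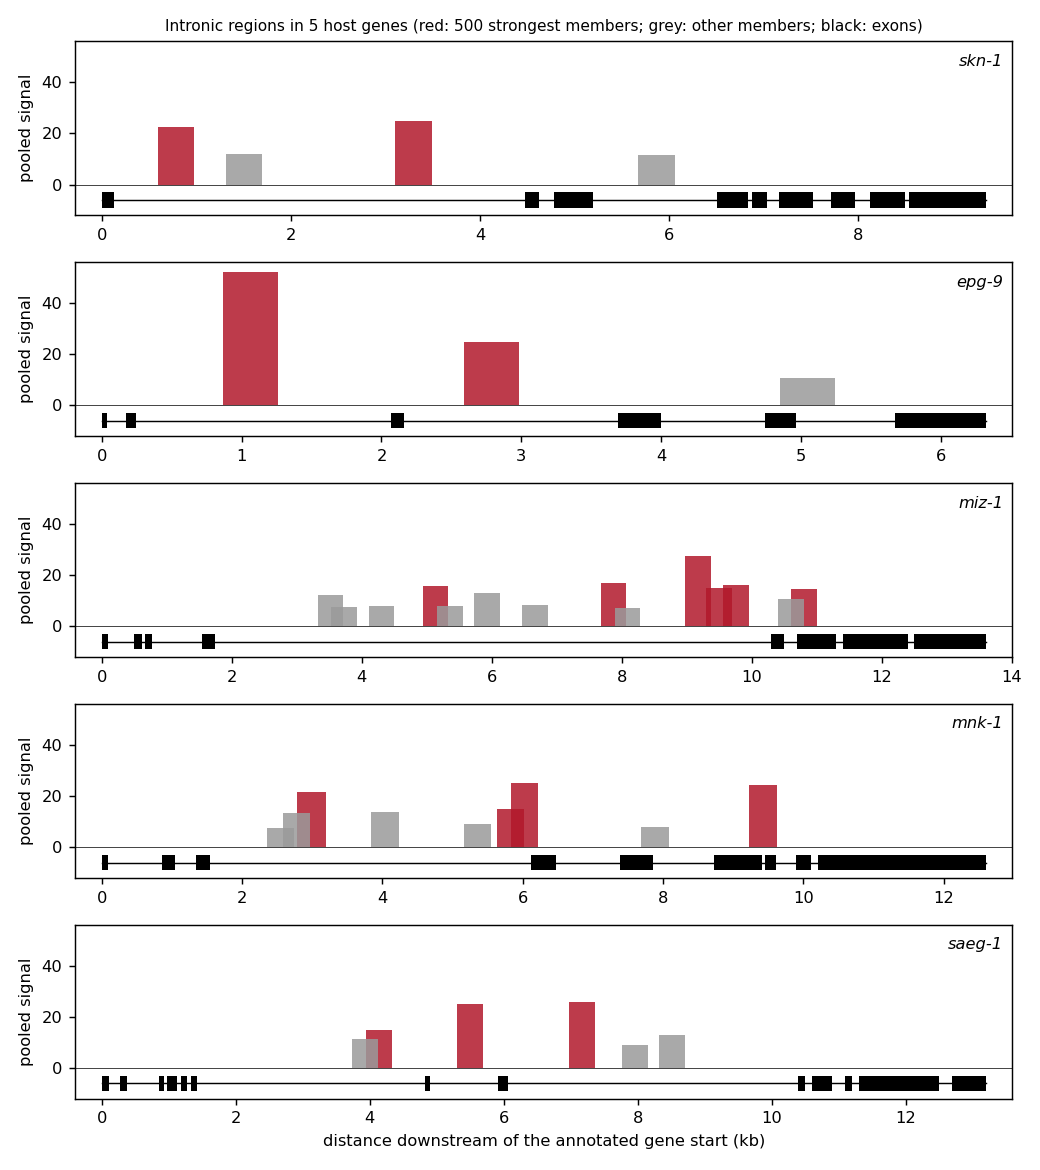
Intronic regions of skn-1, epg-9, miz-1, mnk-1 and saeg-1 by distance from the gene start in kb, with bar height giving the pooled signal; bars are red for the 500 strongest and grey for the other intronic regions, and black boxes are exons. The regions of skn-1 rise to 24.9 in its long first intron and that of epg-9 to 52.3. miz-1 carries 14 regions, some of them overlapping, along one long intron and its neighbours.

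The list of skn-1 and its regulators had hosts in 9 of 17 cases, with 38 regions at 576 per Mb of their eligible bases, against 251 per Mb over all. skn-1 was the strongest, followed by pmk-1, the p38 kinase that phosphorylates SKN-1, with 19.3 pooled, 4.25 in replicate 1 and 10.03 in replicate 2. The other hosts, given here to complete the list, were tir-1, vhp-1, xrep-4, wdr-23, ikke-1, png-1 and pdhk-2, with best pooled signals of 16.18, 15.2, 14.2, 13.8, 7.80, 7.78 and 7.12. tir-1 acts above the p38 cascade and vhp-1 is a phosphatase that turns it down, and these long genes held 11 and 13 regions. Most of the regions of the list, which has 0.0659 Mb of eligible bases, were thus in this pair. Their densities were 428 per Mb in tir-1 and 1029 in vhp-1, and skn-1, with the reservation about the insertion, had 863. wdr-23 and xrep-4 act in the turnover of SKN-1. None of the 38 regions in this list was thresholded, but only 0.157% of all intronic regions were, so this count says nothing particular about the list.

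Insulin, TOR and AMPK signalling genes were hosts in 10 of 16 cases, at 389 regions per Mb. let-363, the TOR kinase, had 23.1 pooled, with 10.9 in replicate 1 and 11.4 in replicate 2, within the 1000 strongest regions of both. hlh-30, the TFEB homologue, had 10 regions, the best with 19.8 pooled, 8.73 and 9.23. Lysosome and autophagy genes were hosts in 11 of 26 cases, at 375 per Mb, led by epg-9, and unc-51, the autophagy kinase, had 15.03 pooled with no overlapping region in replicate 1 and 5.21 in replicate 2. Detoxification and redox genes, the best known targets of SKN-1, were hosts in 3 of 21 cases, with a median of 370 eligible bp. They were pgp-1, ctl-2 and sod-2. The region of pgp-1, an ABC transporter, had 18.99 pooled, 5.02 in replicate 1 and 16.5 in replicate 2, with a tRNA gene within 200 bp of its summit. That of ctl-2, a catalase, had 13.3 pooled and 9.91 in replicate 2 alone. That of sod-2 had 8.18 pooled and an overlap in neither replicate.

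Genes of neurons, muscle and cell contacts have long introns and were hosts often. The neuron and synapse list had 17 of 24, with a median of 4143 eligible bp, the muscle list 17 of 27 with 2293 bp, the axon guidance and adhesion list 18 of 24 with 5778 bp, and ion channels 12 of 16 with 6556 bp. Their densities of 342, 292, 269 and 243 regions per Mb lay nearer to the 251 per Mb over all than that of the SKN-1 list. unc-43, the calcium and calmodulin dependent kinase II, led the neuron list with 11 regions, the best at 22.3 pooled, 5.51 in replicate 1 and 10.3 in replicate 2. egl-3, a proprotein convertase, had 16.7, with 4.13 and 8.15. unc-70, beta spectrin, had 18.2 beside an snoRNA gene, with 4.03 and 9.47. mig-10, a lamellipodin relative, had 16.6 with 12.2 in replicate 2 alone. unc-60, a cofilin gene, led the muscle list with 16.4, and stn-1, syntrophin, had 14.4. Among channels unc-103 had 16, with 7.40 and 10.7, and itr-1, the inositol trisphosphate receptor, had 14.1.

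Growth factor, Wnt and Notch genes were hosts in 11 of 22 cases, led by mpk-1 and then by sos-1, the Ras exchange factor, with 14.6. Transcription factors were hosts in 93 of 351 cases (26.5%), at 336 regions per Mb, led by zip-2, a bZIP factor, with 21.6 pooled, 7.86 in replicate 1 and 9.98 in replicate 2, and by fkh-7, a forkhead factor, with 20.3, 10.7 and 7.67. Hypodermis and seam genes were hosts in 4 of 15 cases (26.7%), led by rnt-1, the RUNX factor, with 14.2. The intestine, germ line and translation lists had medians of 485, 234 and 140 eligible bp, against 640 bp over all eligible genes. Hosts were 2 of 10 in intestine, 3 of 20 in germ line and 3 of 44 in the translation machinery, where eif-3.L led with 13.4. The translation list took ribosomal protein and initiation factor genes by the start of their symbols. It left out elongation factors, so that eef-2, with 26.4 pooled, was not in it. None of the 11 unfolded protein response genes of the endoplasmic reticulum was a host, which has an exact upper limit of 28.5%. Their median was 193 eligible bp.

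**Figure D5:**
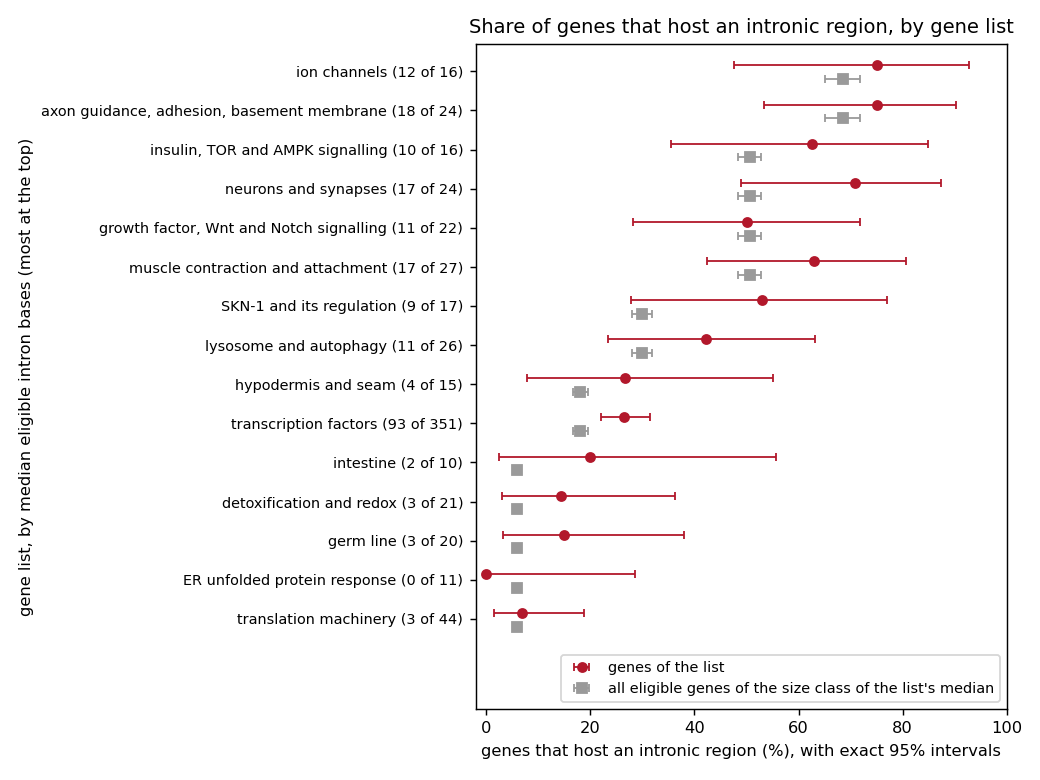
Share of genes in each list that host an intronic region, in % (red, with exact 95% intervals), above the share over all eligible genes whose eligible bases fall in the same size class as the list's median (grey squares). Lists run by median eligible bases, and the red shares broadly follow the grey ones, from 75% in ion channels to 6.82% in the translation machinery, with 0 in the unfolded protein response. The red share is the higher in every list except growth factor, Wnt and Notch signalling and the unfolded protein response. In transcription factors it is 26.5% against 18%. The grey share follows the median gene alone. All eligible genes together, with a median of 640 bp, are hosts in 23.9% and so also exceed the 18% of their class. A red share above the grey one is thus partly built in.

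The place of the window edge was also described. Between 501 and 600 bp downstream of their host's start lay 183 intronic regions, just inside the rule, and 225 autosomal regions in no exon lay 401 to 500 bp downstream, just outside it. In all, 1337 autosomal regions with an intronic summit were left to the promoter class by the window.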

How the data were processed

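Both biological replicates of eGFP-SKN-1 ChIP-seq were used. The authors deposited a narrowPeak list per replicate, a pooled list and a thresholded list for ce11, each with a signal value per region. Per the labels' file listing, the replicate and pooled lists hold peaks with background, to be filtered by irreproducible discovery rate. For the aligner, the caller and the rate, the name or value is not given in the sources used here. The signal (column 7) ranked regions within a list, and the summit is the deposited offset (column 10). The lists for ce10 were not used, and no column of other samples was present.

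Summits were placed on Ensembl release 115 genes of WBcel235, the same assembly as ce11, and sequence came from RefSeq. Exons of every gene type barred a summit. Bases marked as repeats are the lower case letters of the RefSeq sequence. A pooled region counted as thresholded when the same row was in that list, and a region of a replicate's list when it overlapped a thresholded peak. Replicates were matched by an overlap of at least 1 bp, taking the strongest region. Shares were compared by two-sided Fisher's exact tests with Benjamini-Hochberg adjustment within 2 families, of 10 and 8 measures, at 0.05, and intervals are Clopper-Pearson at 95%. The 4 listed symbols without a match were left out. The test and the class of positions were tested on simulated data. Python 3.11.15, numpy 2.4.6, scipy 1.17.1 and matplotlib 3.10.9 were used.

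Named are hosts of the 25 strongest regions and of all thresholded ones, the 8 hosts with most regions, the 5 strongest regions near a small RNA gene and with the SKN-1 site, the 2 strongest hosts of each list with a region among the 1000 strongest, and skn-1. The members, lists and tests were chosen with earlier results of these data known. Alternatives changed the exon rule, the window, the list, the limits and the motif window.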

Additional observations from a re-analysis of the deposited data

How the results depend on the processing

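Of 152 odds ratios under an alternative, 121 kept their direction and their side of the threshold. No paired analysis was possible because there is 1 group. Leaving out a replicate means using the other's list alone, with an overlap with a thresholded peak counted in place of the same row. Odds ratios for intronic against other autosomal regions were then 0.358 to 0.383 for the thresholded list (both passing), 0.871 to 0.976 for TGATAA (failing at 0.976), 1.13 to 1.45 for GAGAGAGA (passing at 1.45) and 0.832 to 1.10 for TGACTCA. For the 500 strongest against the other intronic regions they were 1.26 to 1.45 for first introns, 1.23 to 1.41 for long introns, 2.14 to 3.05 for small RNA genes, 0.924 to 1.04 for the SKN-1 site and 0.716 to 1.74 for GTAAACA.

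Between intronic and other autosomal regions, barring only protein-coding exons gave 0.858 for replicate 1 overlap (no longer passing), 1.37 for small RNA genes (reversed, passing), 0.882 for the SKN-1 site and 1.32 for GAGAGAGA (both now passing) and 1.02 for TGACTCA (reversed). A window of 500 bp upstream to 250 bp downstream gave 0.440 for the thresholded list (now passing), 1.00 for TGACTCA and a median intron of 858 bp. One of 2000 to 1000 bp gave 0.865 for replicate 1 overlap (no longer passing), 0.618 for small RNA genes and 1.52 for GAGAGAGA (both now passing) and a median of 1208 bp; the longest intron over the summit gave 1075 bp. With the strongest region of each host gene against all other autosomal regions, which thins the intronic side alone, replicate 1 overlap (0.842) and TGATAA (0.901) no longer passed, and GAGAGAGA reversed to 0.878; among intronic regions TGACTCA reversed to 1.09. Replicate 1 overlap no longer passed with the 500 (0.805) or 2000 strongest (0.877). Within 50 bp of the summit TGATAA (0.872) no longer passed, and among intronic regions TGACTCA reversed to 1.07; in the whole region the SKN-1 site (0.906) and GAGAGAGA (1.20) passed. For the 500 strongest, an intron limit of 500 bp gave 1.18, no longer passing. The cause of these changes was not tested. Unknown depth and 2 replicates limit all of them.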

Other observations

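Density over eligible bases put other hosts ahead of the long genes with most regions; these were chosen after their values were seen. Among the 197 hosts with at least 5 intronic regions, atf-7, a bZIP factor below the p38 kinase PMK-1, came first with 7 regions in 4157 eligible bp, or 1684 per Mb. nlp-40, a neuropeptide gene of the intestine, followed with 7 in 4267 bp, or 1640 per Mb, and ptr-12, a patched related gene, with 6 in 3830 bp, or 1567 per Mb. zfp-1, already named for its thresholded region, had 9 in 7203 bp, or 1249 per Mb. daf-16, the FOXO factor of insulin signalling, had 14 regions in 21589 eligible bp, the best at rank 388 with a pooled signal of 15.2. These are descriptions of 1 pooled list, in which overlapping regions count separately, and no test was made.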
